A study of Drosophila melanogaster with 3 samples.

Results

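Distal intergenic peaks of Schnurri binding are described here, from chromatin immunoprecipitation and sequencing (ChIP-seq) of *Drosophila melanogaster* embryos. A peak of the authors' reproducible list was taken as distal intergenic when its summit lay over 1 kb from every annotated transcription start site (TSS), whatever the kind of gene, and outside the span of every protein-coding gene. By this rule 306 of the 3586 reproducible peaks were distal intergenic, which is 8.53% with a Wilson 95% interval of 7.66 to 9.49%. The interval covers counting error over peaks only, and peaks are not replicates. The other peaks were 2485 within 1 kb of a TSS (promoter-proximal), 758 distal peaks in introns and 37 distal peaks in exons of protein-coding genes.

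The embryos were 0 to 24 h old, whole and of mixed sex, from a transgenic line that stably carries Schnurri (shn) fused at its C terminus to GFP, and an anti-GFP antibody was used on chromatin sheared by sonication into pieces of 200 to 800 bp. All 3 samples are biological replicates of this 1 group, so there is no contrast between genotypes, treatments or stages. The wide age range and the use of whole animals mean that a peak cannot be assigned to a stage or cell type, and fewer bound cells cannot be told apart from weaker binding per cell. Each replicate has its own list of 30000 ranked peaks and background regions. Read depth is unknown.

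Schnurri is a large zinc finger protein of the Dpp/BMP pathway. When Dpp, the fly BMP ligand, activates its receptors, the Smad proteins Mad and Medea enter the nucleus and bind DNA, and Schnurri joins them at silencer elements, the best known of which represses brinker. Distal intergenic sites in the fly genome can be enhancers, silencers or insulators. CTCF is a zinc finger insulator protein whose sites in *Drosophila* are best known from the boundaries of the Hox clusters.

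Of 20 motifs searched around the summits, the core of the CTCF site, AGNNGGCGC, had the widest relative gap between these peaks and the flanking sequence among motifs found in at least 10 peaks. It was found on either strand within 100 bp of the summit in 28 of the 306 peaks, or 9.15% with an interval of 6.41 to 12.9%. The following windows are shown because they carry this core. They are the 8 of highest signal among the 22 carriers outside the arm whose sequence is not printed, and the carriers beside the Hox genes Ubx and Abd-B. Each window has 79 bases, is named by its flanking genes, is read from the Release 6 assembly (dm6) on the strand given, 5′ to 3′, and has the 9 bases of the core in capitals.
Sox21a to Sox21b, chr3L:14111609-14111687, plus strand: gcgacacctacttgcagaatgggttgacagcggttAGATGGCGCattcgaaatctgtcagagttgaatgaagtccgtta
noc to CG33648, chr2L:14502780-14502858, plus strand: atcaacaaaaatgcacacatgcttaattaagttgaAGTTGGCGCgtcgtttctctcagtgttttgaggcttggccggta
Sid to snu, chr3R:28672386-28672464, minus strand: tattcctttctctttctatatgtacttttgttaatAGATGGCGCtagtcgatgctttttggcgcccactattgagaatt
Cph to CG1958, chrX:7242090-7242168, plus strand: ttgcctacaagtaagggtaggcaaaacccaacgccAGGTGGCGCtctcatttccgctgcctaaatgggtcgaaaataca
Jhbp1 to CG14662, chr3R:4970779-4970857, plus strand: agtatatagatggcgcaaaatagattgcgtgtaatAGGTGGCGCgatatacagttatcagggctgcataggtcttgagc
bi to CG3556, chrX:4507279-4507357, minus strand: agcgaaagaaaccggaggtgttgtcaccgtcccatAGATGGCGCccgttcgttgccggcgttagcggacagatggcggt
CG5214 to pros, chr3R:11269141-11269219, minus strand: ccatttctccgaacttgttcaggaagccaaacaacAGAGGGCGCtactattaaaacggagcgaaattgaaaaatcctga
Fancm to C15, chr3R:21487946-21488024, plus strand: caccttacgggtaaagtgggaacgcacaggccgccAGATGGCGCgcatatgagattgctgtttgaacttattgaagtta
Ubx to CG31275, chr3R:16748696-16748774, plus strand: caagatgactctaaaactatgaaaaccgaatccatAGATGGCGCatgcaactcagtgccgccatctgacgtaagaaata
MSAmiP to Abd-B, chr3R:16919190-16919268, minus strand: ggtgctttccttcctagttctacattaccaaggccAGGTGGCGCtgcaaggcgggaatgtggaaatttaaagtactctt

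The 28 peaks held 35 cores in all, and 16 of them read AGATGGCGC and 7 read AGGTGGCGC. These 2 spellings, of the 16 that the open positions allow, therefore made up 65.7% of the cores at the summits. In sequence that met the same rule but lay away from the summits, they made up 16.6% of 2052 cores. The 2 were the commonest spellings among these same 35 cores. They were not particular to this class. A core of either spelling was in 18 of the 28 distal intergenic carriers. The same held for 14 of 22 distal intronic and 43 of 79 promoter-proximal carriers. The 35 cores of the distal intergenic peaks lay a median of 41 bp from the summit, and 22 of the 35 lay within 50 bp of it. The window between Jhbp1 and CG14662 holds another core to the left of the one in capitals, and the window between Sid and snu holds another to the right, on the opposite strand.

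The same core was less frequent at the summits of the other large classes. It was found in 22 of 758 distal intronic peaks (2.90%, interval 1.92 to 4.36%) and 79 of 2485 promoter-proximal peaks (3.18%, interval 2.56 to 3.94%). Windows 1000 bp from the distal intergenic summits held it in 9 of 557 cases (1.62%), and windows tiled over all sequence meeting the rule in 375 of 31333 (1.20%). It was not confined to distal intergenic peaks, since 12 of the 37 distal exonic peaks had it (32.4%, interval 19.6 to 48.5%). Distal intergenic peaks of the pooled list that did not enter the reproducible list had it in 94 of 3741 cases (2.51%).

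The difference between classes was then measured in each replicate's own 3586 strongest peaks, classified by their own summits. The share of distal intergenic peaks with the core was 4.92% in replicate 1, 7.72% in replicate 2 and 9.33% in replicate 3. Distal intronic peaks had 2.61%, 2.70% and 3.28%, and promoter-proximal peaks had 3.08%, 3.19% and 3.38%. The distal intergenic share was the higher in all 3 replicates, by 4.46 ± 1.93 percentage points over the intronic share and by 4.11 ± 2.09 points over the promoter-proximal share (mean ± SD, n = 3). The exact two-sided sign-flip permutation test gave p = 0.25 for each, the smallest p that this test can give with 3 replicates, so it could not pass a usual threshold. Over these and the 4 rank comparisons given further on, the adjusted p was also 0.25. The comparison was chosen after the share among the 306 peaks had been seen, and the same replicates underlie the reproducible list.

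Carriers of the core were ordinary members in strength. Their median signal was 125.1, against 125.7 for the 278 peaks without it (signal is the authors' own value per peak and is used only to describe and rank peaks within one list). A place in every replicate's top list was held by 12 of the 28 carriers (42.9%) and 125 of the others (45.0%), where a top list is the 3586 strongest regions of a replicate. The peak between the Sox-family genes Sox21a and Sox21b ranked 424, 598 and 503 in replicates 1, 2 and 3. The one between bi (optomotor-blind, a T-box factor) and CG3556 ranked 2640, 1066 and 1003. The peak between Ubx and CG31275 ranked 24063, 3389 and 1894, and the one near Abd-B 10164, 2337 and 3444. The Hox-flanking carriers were thus outside the strongest 10000 regions in replicate 1 and far higher in the other replicates. Of the carriers, 18 lay between genes in tandem, 6 between convergent genes and 4 between divergent genes, and their median distance to the nearest gene was 2069 bp, against 4438.5 bp for the others. GC content moved with the core: the median of the 201 bp window was 40.8% in carriers and 37.3% in the other peaks, and the part this played was not tested.

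Within 100 bp, the Smad box and GC-rich Mad site of Schnurri's partners were not more frequent at these summits than in the flanks. The Smad box GTCTG, bound by Medea and Mad, was present in 64 of 306 windows (20.9%), against 21.7% of flanks and 25.1% of all windows meeting the rule. The GC-rich Mad site GCCGNC was present in 43 (14.1%, interval 10.6 to 18.4%), against 18.9% of flanks, but with windows of 250 bp to each side it was present in 45.1% against 40.9%. The Smad box at that width was present in 48.4% against 44.3%. The silencer element that recruits Schnurri with Mad and Medea matched within 100 bp in 1 peak (0.33%). Its share was 0.18% in flanks and 0.14% in all reproducible peaks. The Dpp activating element matched within 100 bp in 2 peaks (0.65%), against 0 of 557 flanks and 0.33% of all reproducible peaks. These shares rest on few matches. Short motifs were searched on both strands, and a match or its lack says nothing of binding by the factor.

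Other motifs differed in frequency between these summits, promoter-proximal summits and flanks. The DNA replication-related element DRE, TATCGATA, a core promoter motif, was found in 1 of 306 windows (0.33%) against 7.36% of promoter-proximal windows. The insulator motif CGATA, which the DRE contains and BEAF-32 binds, was found in 22.2% against 37.8% of promoter-proximal windows and 20.5% of flanks. The GAGA repeat GAGAG, bound by the Trithorax-like protein, was in 26.8% of distal intergenic windows, 27.8% of intronic and 20.1% of flanks. The GATA site TGATAA was in 18.3%, 20.6% and 13.3% respectively. The E-box CAGCTG, a site of basic helix-loop-helix factors, was in 4.58% of distal intergenic windows against 8.98% of flanks, and the core of the Su(Hw) insulator site, TGCATAC, in 5.56% against 3.05%. The flank share lay below the members' interval for the GAGA repeat (22.1 to 32.0%), the GATA site (14.37 to 23.02%) and the Su(Hw) core (3.50 to 8.72%), and above it for the E-box CAGCTG (2.74 to 7.53%). With windows of 250 bp to each side the GATA site turned direction, with 29.4% of members against 31.8% of flanks. At that width the flank share of the Su(Hw) core, 6.46%, lay within the members' interval (5.86 to 12.2%). With windows of 50 bp the same held for the GAGA repeat, with 9.69% of flanks and an interval of 8.62 to 15.9%. For the E-box CAGCTG the flank share stayed above the interval at both widths. GC content also differed, with a median of 37.8% at the summits and 41.3% in the flanks. These differences were not tested over replicates.

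**Figure D1:**
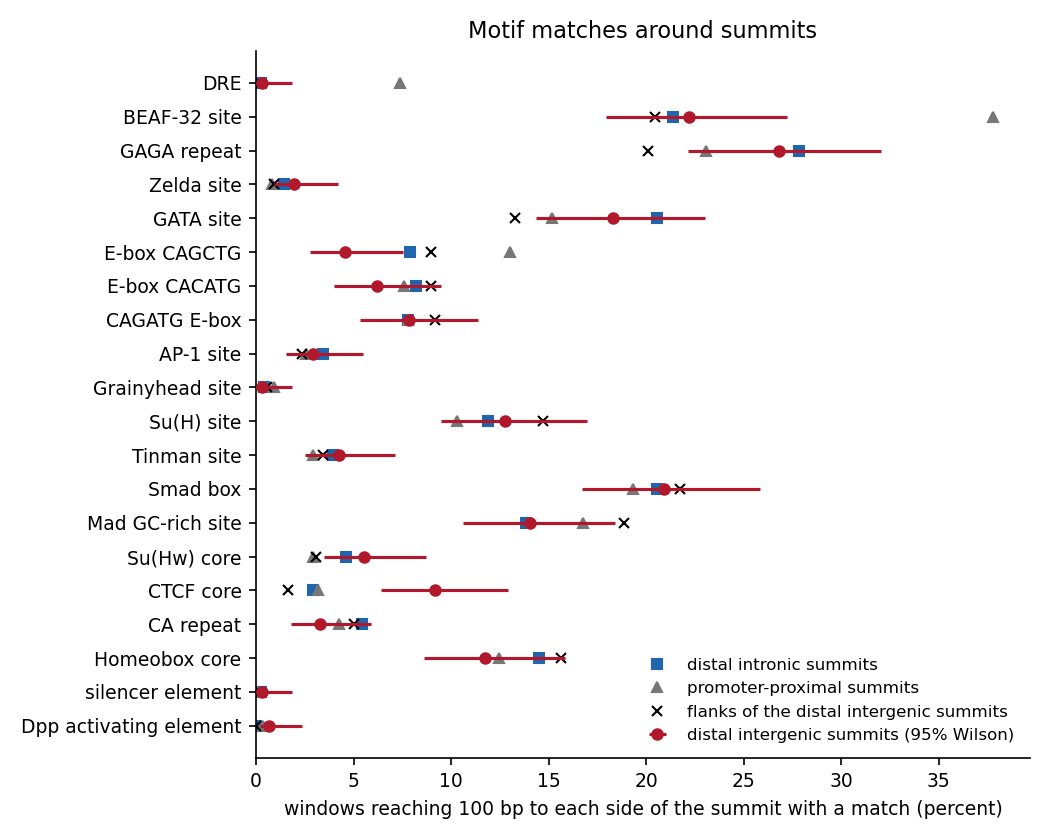
Percent of windows with a match to each of 20 motifs (y axis) within 100 bp of the summit: red points with 95% Wilson bars are the 306 distal intergenic peaks, blue squares 758 distal intronic peaks, grey triangles 2485 promoter-proximal peaks and crosses 557 windows flanking the distal intergenic summits. The CTCF core stands at 9.15% in distal intergenic peaks and at 3.18% or less in the other 3 sets.

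Distal intergenic peaks thinned out with distance from the nearest TSS. The rule leaves 31.9 Mb of sequence, 23.8% of the 6 chromosome arms, and this sequence held 9.60 peaks per Mb against 26.8 reproducible peaks per Mb over the whole arms. The distance from summit to the nearest TSS ran from 1012 to 36602 bp with a median of 3479.5 bp, while the median of all bases meeting the rule was 4654 bp. Density was 15.04 peaks per Mb at 1 to 2 kb from a TSS, 11.2 at 2 to 5 kb, 8.55 at 5 to 10 kb, 6.03 at 10 to 20 kb and 1.49 beyond 20 kb, the last from 5 peaks. Median signal differed little along this gradient, at 134 in the nearest class and 123 in the farthest. The members closest to the limit lay 1012, 1013 and 1015 bp from a TSS, and the closest excluded peaks outside genes 981, 987 and 993 bp. The nearest start was that of a noncoding RNA gene for 111 peaks and of an annotated transposable element for 22, and 23 summits lay within the span of a noncoding RNA gene.

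**Figure D2:**
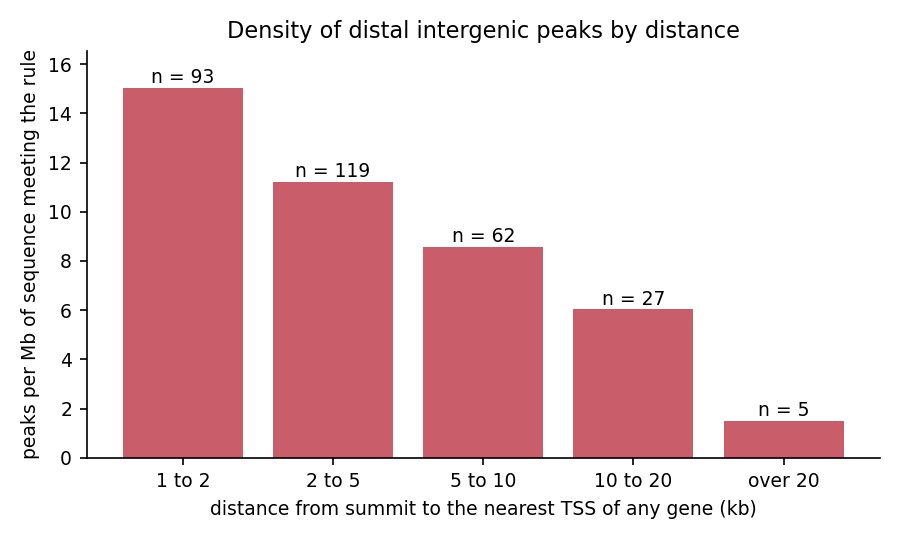
Distal intergenic peaks per Mb of sequence meeting the rule (y axis), by distance from the nearest TSS of any gene in kb (x axis), with the number of peaks over each bar. Density falls in each step, from 15.04 per Mb at 1 to 2 kb to 1.49 per Mb beyond 20 kb.

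The most remote peaks sat in a few long gene-poor stretches. The 3 farthest, at 36602, 32840 and 31876 bp from any TSS, lay between NijA (Ninjurin A, a cell surface protein) and CG43245. The third of these was a strong peak, with signal 315.2 and ranks of 380, 326 and 547 in replicates 1, 2 and 3. The farthest peak of all ranked 2123, 2017 and 3707, and the second 2321, 2439 and 7133. The other remote peaks were one 26210 bp from a TSS between vvl (a POU homeodomain factor of trachea and nervous system) and Prat2, ranked 2548, 2498 and 10880, and the one beside bi with the CTCF core, 22919 bp from a TSS.

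Orientation of the flanking genes was uneven. Intervals between divergent genes held 95 peaks at 13.1 per Mb, those between convergent genes 74 at 10.4 per Mb, and those between tandem genes 137 at 8.70 per Mb. Replicate agreement was alike in the 3 arrangements, with 46.3%, 43.2% and 44.5% of peaks in all 3 top lists. Of the 15 strongest peaks, 9 lay between convergent genes. The nearest protein-coding TSS was downstream of 176 summits, which are thus upstream of that gene, and upstream of 130.

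The strongest distal intergenic peak, chr2R:13035166-13035501, had signal 1148 and lay 27431 bp past the end of Su(z)2, a Polycomb group gene, towards CG13323. It was closer to CG13323, at 9353 bp, and the nearest start was that of a transposable element, at 6029 bp. It ranked 30, 17 and 13 in replicates 1, 2 and 3 and 16 in the reproducible list. Another strong peak, chr2R:12958086-12958485, lay between CG13321 and the Polycomb group gene Psc, a relative of Su(z)2 and its neighbour. It lay 7711 bp past the end of Psc and 2574 bp from CG13321, whose TSS was the nearest, at 4733 bp. This peak ranked 255, 289 and 270. Both were thus high in every replicate.

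The second strongest, chr2R:22802818-22803110, had signal 732.6 and sat in the 1340 bp gap between the convergent genes blw (mitochondrial ATP synthase subunit alpha) and CycB (Cyclin B, a mitotic cyclin). It ranked 52, 66 and 56 and was the only one of the 15 strongest with the CTCF core. The third, chr2L:1638777-1638982, lay 12429 bp upstream of chinmo, a BTB zinc finger factor of neuronal and stem cell identity, and ranked 56, 111 and 305. The fourth, chr3R:8355588-8355877, lay 1250 bp upstream of stck, the adhesion protein PINCH, next to the autophagy gene Atg13, and ranked 151, 130 and 187. The fifth, chr4:424679-424927, was the only member on chromosome 4, between dati and lgs (Legless, a Wnt coactivator). It had no match in replicate 1 and ranked 178 in replicate 2 and 88 in replicate 3. The other 14 of the 15 strongest lay in every top list.

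Patterning genes followed lower in the 15. A peak between Glut3 and the Hox gene abd-A, at chr3R:16798789-16799034, ranked 346, 294 and 111. The peak between the paired forkhead genes slp1 and slp2, at chr2L:3832395-3832610, ranked 263, 464 and 290. One 3775 bp past the end of slbo, the fly C/EBP needed for border cell migration, ranked 395, 337 and 234. The peak between RYBP, a Polycomb-associated protein, and Ppa ranked 2633, 185 and 154, so replicate 1 stood far below the others. The remaining 6 flanked CG43131 and RabGGTa, CG7484 and Crtc (a CREB coactivator), CG6739 and Slob (a potassium channel binding protein), COX7AL2 and CG31668, dpr17 and CG4702, and the pair already given beside Psc. Within 100 bp of the summit, 4 of the 15 held a Smad box and 3 a GC-rich Mad site.

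Members were spread over 222 intergenic intervals, of which 170 held 1 peak, 42 held 2 and the rest 3 to 10. The interval between RFeSP (an iron-sulfur protein of the respiratory chain) and chinmo, 37.1 kb long, held 10 peaks between 1.024 and 35.3 kb upstream of chinmo. Of these, 7 lay in all 3 top lists.

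Other intervals with many members were 47.9 kb between hng3 and CG13898 with 7 peaks, 27.3 kb between CG44362 and CG7560 with 5, and 75.05 kb between NijA and CG43245 with 5. Of the 7 beside hng3, 3 lay in all 3 top lists, and their signals ran from 93.0 to 213.5. All 5 beside CG7560 did so, although 2 of them matched the same peak in each replicate, which ranked 458, 388 and 266. Of the 5 beside NijA, 2 did so. Intervals over 20 kb held 163 of the 306 peaks (53.3%) and 67.0% of the sequence meeting the rule.

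**Figure D3:**
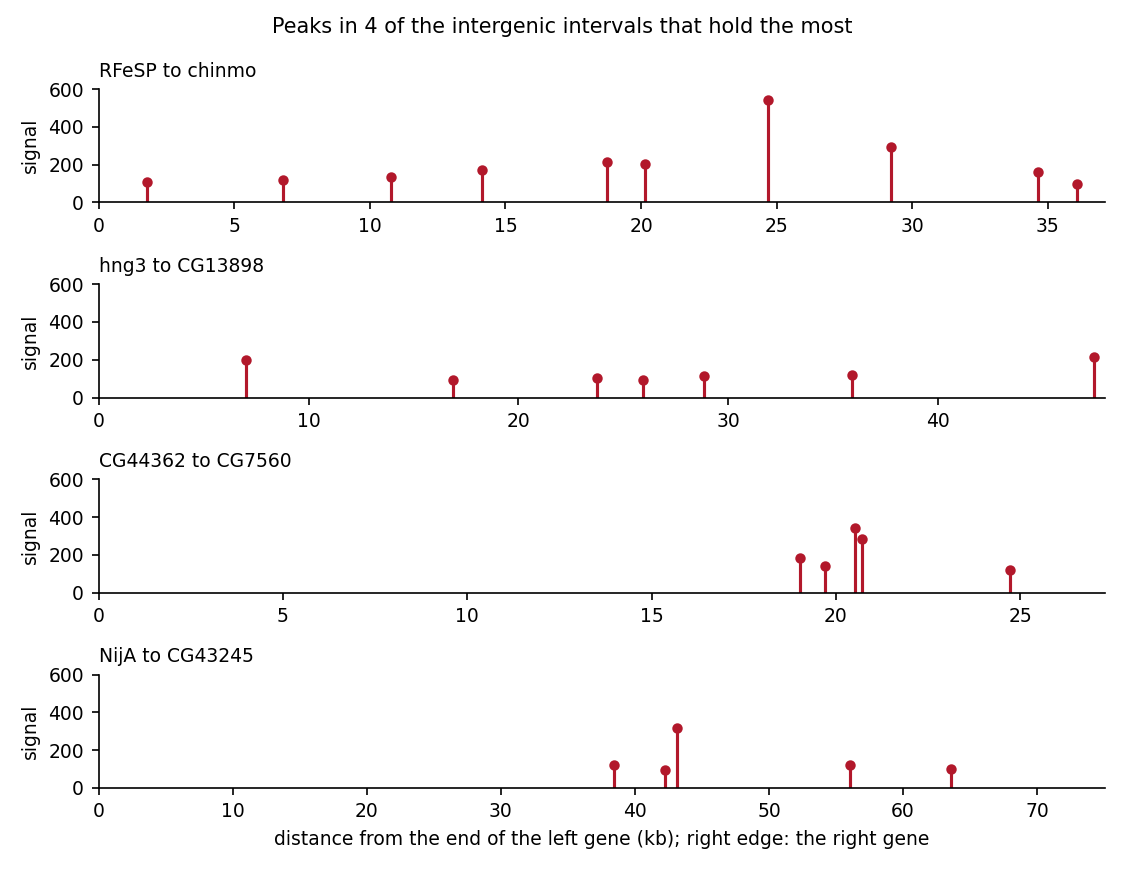
Signal of each distal intergenic peak (y axis, the authors' value) by its distance in kb from the end of the left gene (x axis) in 4 of the intervals that hold the most members; the right edge of each panel is the right gene. The 10 peaks upstream of chinmo run through the whole interval with one at 543, and the 5 beside CG7560 all lie in the right part of theirs.

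Of the 13945 protein-coding genes, 416 flanked a distal intergenic peak (2.98%). Gene lists were compared with this share and with the 9.60 peaks per Mb, since genes with long flanks have more room for peaks. Dorsal genes that respond to Dpp/BMP had 6 of 21 members flanking a peak (28.6%) and 9 peaks at 36.6 per Mb. The T-box genes Doc1 and Doc2, which act in the amnioserosa and heart, had 4 of the 9 beside them. The peak 707 bp past the end of Doc2 had signal 134.2, and one between Doc1 and Doc2 had 131.8. The strongest of the list lay 8988 bp from tup (Tailup, a LIM homeodomain factor), with signal 166.0. The next, with 137.8, lay 27362 bp from peb (Hindsight, a zinc finger factor of the amnioserosa) and 18273 bp from CG12684. After it came one with 136.7, which lay 12016 bp from the homeobox gene C15 and 526 bp from Fancm. Each of these last 3 was in all 3 top lists, as were 5 of the 9 peaks. For 5 of the 9, the nearest protein-coding TSS was that of a listed gene. No peak of the list was among the 15 strongest distal intergenic peaks. Among peaks at or above the median signal of the reproducible list, the list had 1 peak at 4.06 per Mb, against 3.92 per Mb over all genes.

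The Dpp/BMP pathway itself was less marked at distal sites. Among its 28 genes, 3 flanked a peak (10.7%), each with 1 peak of low signal: sog (a secreted BMP antagonist) with 111.9, nej (the coactivator CBP) with 101.3 and dally (a glypican that binds Dpp) with 95.2. None of these 3 lay in all 3 top lists. Their density of 36.0 per Mb rests on 0.0834 Mb of sequence. None of the 306 summits lay in the 100 kb centred on shn, the tagged gene. With 9.60 peaks per Mb of sequence meeting the rule over the arms, an absence from so short a stretch says little.

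Several lists of transcription factors had densities above that of all genes. Sox, forkhead, T-box and GATA factors had 12 of 34 genes flanking a peak (35.3%) and 18 peaks at 31.6 per Mb. Among the 18 are the 4 peaks beside Doc1 and Doc2 that the dorsal list also counts. The strongest lay 4662 bp from foxo (the insulin-responsive forkhead factor) with signal 326.2, 9272 bp from mid (a T-box factor) with 295.1, and between Sox21a and Sox21b with 288.8. Gap and pair-rule genes, in a list that also counts drm and sob, had 9 of 23 (39.1%) and 13 peaks at 22.4 per Mb. The strongest were the peak between slp1 and slp2 and one 21556 bp from hry (Hairy, a repressor) with 275.3. The next, with 178.4, lay 2680 bp from CG43815 and 25107 bp from drm, a small zinc finger protein. Hox genes had 5 of 8 (62.5%) and 4 peaks at 29.8 per Mb, beside abd-A, Ubx, Abd-B and between Dfd and Scr. Among peaks at or above the median signal these 3 lists had 10.5, 10.3 and 7.44 per Mb, the last from 1 peak, against 3.92 over all genes. The counts in each of these lists are small, and no chance test was made of them.

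Other signalling lists held few peaks, some at high density over little sequence. The Wnt list had 3 of 21 genes and 3 peaks at 23.9 per Mb, of which 2 lay between Wnt4 and wg, the main fly Wnt ligand, with signals of 103.7 and 97.0. The JAK/STAT list had 3 of 9 genes and 2 peaks at 34.4 per Mb, one between the ligand genes upd3 and upd1 with signal 128.3 and one beside upd2 with 113.5. The Hedgehog list had 1 peak at 39.5 per Mb, 5301 bp from the receptor gene ptc, and the Notch list 1 peak at 8.23 per Mb, between E(spl)mbeta-HLH and E(spl)malpha-BFM, targets of Notch, with 218.8. Proneural and neural determinants had 4 peaks at 10.8 per Mb and mesoderm, heart and muscle factors 3 at 11.9 per Mb. When each peak was given only to the gene of the nearest TSS, these became 5.99 and 22.0 per Mb, on opposite sides of the 9.60 over all genes. Over all the signalling and transcription factor lists together, 52 of 297 genes flanked a peak (17.5%), with 62 peaks at 16.8 per Mb.

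Several other lists had densities below that of all genes. Chemosensory receptor genes had 7 peaks at 6.65 per Mb, axon guidance and adhesion genes 6 at 6.08, and EGFR and FGF pathway genes 3 at 5.90. With each peak given only to the gene of the nearest TSS, axon guidance and adhesion genes had 10.9 per Mb, above the 9.60 over all genes. Segment polarity and appendage homeobox genes had 3 at 4.92, ribosomal protein genes 2 at 4.83, cuticle protein genes 1 at 4.49, ecdysone response genes 1 at 3.79 and neuropeptide and neurotransmitter receptor genes 1 at 2.63 per Mb. The chromatin list had 4 peaks at 20.4 per Mb, all beside Psc or Su(z)2, and none when peaks were given only to the gene of the nearest TSS. Of the remaining lists, bZIP and stress factors had 2 peaks, beside slbo and Atf3, at 26.4 per Mb, immune genes 2 at 23.8 per Mb, and tracheal and epithelial factors 4 at 7.95 per Mb.

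**Figure D4:**
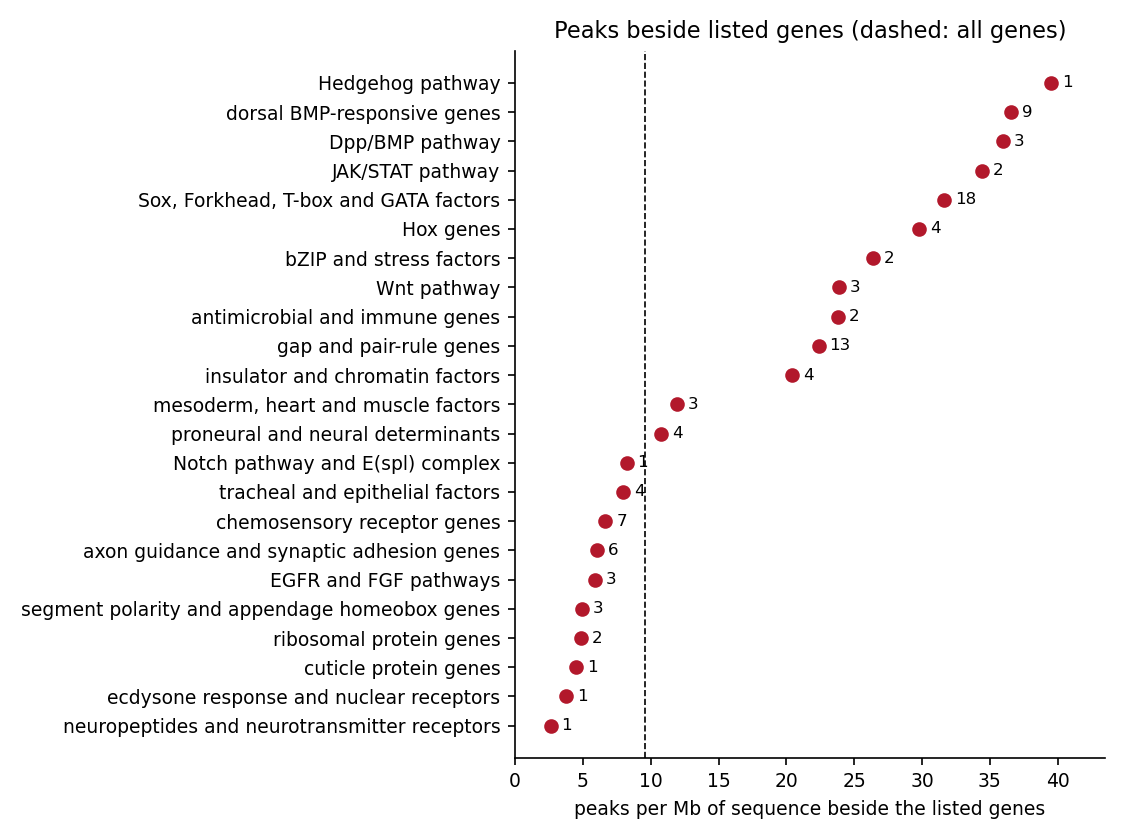
Distal intergenic peaks per Mb of sequence meeting the rule beside the genes of each of 23 lists (x axis; lists on the y axis), with the number of peaks beside each point and the density over all genes, 9.60 per Mb, as a dashed line. Dorsal BMP-responsive genes and Sox, forkhead, T-box and GATA factors lie above 30 per Mb with 9 and 18 peaks. The 4 peaks beside Doc1 and Doc2 count in both. The Hedgehog, Dpp/BMP and JAK/STAT lists also lie above 30 per Mb, each with 3 peaks or fewer. Several other lists rest on 4 peaks or fewer.

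Distal intergenic peaks ranked lower than the other large classes in every replicate. Their signal ran from 91.8 to 1148 with a median of 125.7, against medians of 135.2 for distal intronic and 145.8 for promoter-proximal peaks. Of the 306, 218 lay among the 3586 strongest regions of replicate 1 (71.2%, against 74.2% of all reproducible peaks). In replicate 2 it was 246 (80.4%, against 85.0%), and in replicate 3 it was 213 (69.6%, against 78.1%). All 3 top lists held 137 of them (44.8%, interval 39.3 to 50.4%), against 53.8% of all reproducible peaks, 52.1% of distal intronic and 55.6% of promoter-proximal peaks. A further 102 lay in 2 top lists, 62 in 1 and 5 in none.

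Against distal intronic peaks, the share in the top list differed by -2.37, -5.49 and -5.99 percentage points in replicates 1, 2 and 3, a mean of -4.62 ± 1.96 points (SD, n = 3). Against promoter-proximal peaks it differed by -3.73, -4.88 and -10.3 points, a mean of -6.31 ± 3.52. The share was thus the lower in every replicate. The median rank was 2401 in replicate 1, 2133 in replicate 2 and 2333.5 in replicate 3. The log2 ratio of median ranks was 0.20 ± 0.0061 over intronic and 0.46 ± 0.11 over promoter-proximal peaks. Direction was the same in 3 of 3 replicates for all 4 comparisons, and the exact two-sided sign-flip test gave p = 0.25 for each, before and after Benjamini-Hochberg adjustment, which is the smallest p this test can give. With a match that needs replicate summits within 100 bp, the difference in share against intronic peaks was -2.55 points with exact p = 0.5, so the replicates no longer all had the same sign. Among peaks at or above the median signal of the reproducible list, the differences in share were -0.044 points (intronic) and -0.21 points (promoter-proximal). In this subset 86.4% of distal intergenic peaks lay in all 3 top lists, so the share had little room to differ between classes. Signal comes from the pooled replicates, so it is not independent of their ranks, and whether it accounts for the differences was not tested. In that subset the log2 rank ratio was -0.097 over intronic peaks but stayed at 0.21 over promoter-proximal peaks. The sign-flip test gave exact p = 0.5 for both ratios, so the replicates did not all have the same sign.

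**Figure D5:**
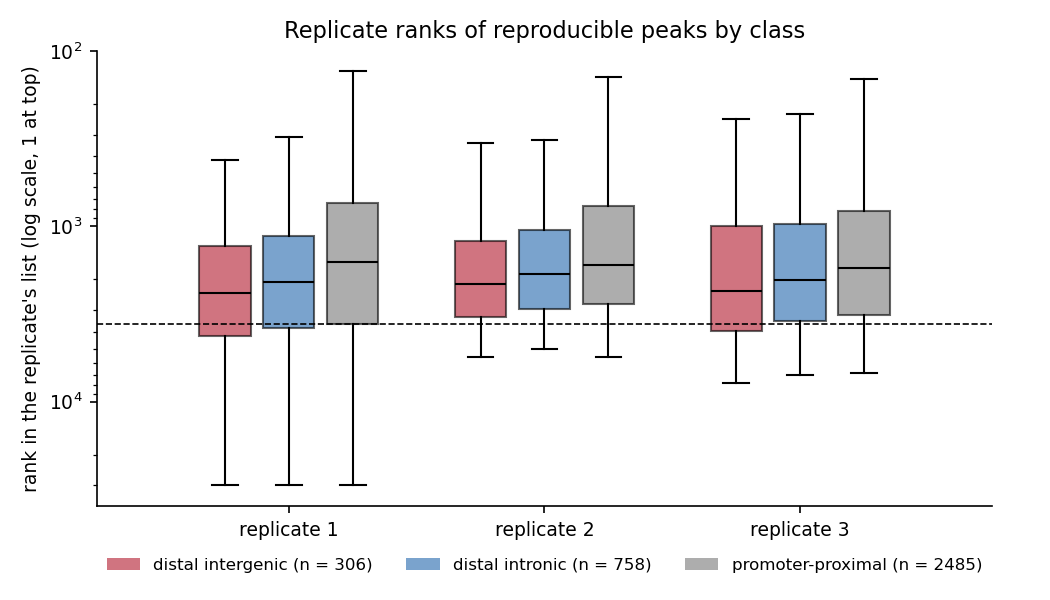
Rank of reproducible peaks in each replicate's list (y axis, log scale, strongest at the top) for 3 classes; boxes give quartiles and median, whiskers the 5th to 95th percentile, and the dashed line the last rank of the top list, 3586. Unmatched peaks are placed one rank below the last; the median of distal intergenic peaks is the lowest of the 3 in each replicate.

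Within the members, agreement followed signal closely. Of the 77 strongest, with signal of 189.2 or more, 70 lay in all 3 top lists (90.9%). Of the next 76 it was 53 (69.7%), of the 76 after those 14 (18.4%), and of the 77 weakest 0. Signal is the value from the pooled replicates, so this is not independent of their ranks. Replicate 1 had no match for 24 members (7.84%), against 9.26% of all reproducible peaks. Replicate 2 had no match for 0 members, against 0.17% of all, and replicate 3 for 1 (0.33%), against 0.28%. Among the members matched in all 3 replicates, 29 had a rank beyond 10000 in some replicate. The share over all reproducible peaks was not counted.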

How the data were processed

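The authors deposited, for each of the 3 replicates and for their pool, a list of peaks and background kept for the irreproducible discovery rate (IDR) procedure, and an optimal IDR-thresholded list, called reproducible here. Each deposited peak has a signal value, a −log10 q value and a summit from the authors' peak caller. Neither the name of the caller nor the cut applied by IDR is given in the sources used here. A control used in the calling was not analysed here, and lists on dm3 were not used. Per the labels, the lists are on dm6, and coordinates are 1-based.

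Summits were classified with the Ensembl release 115 annotation (BDGP 6.54), with 29371 distinct TSSs of any biotype, transposable elements included. A peak matched a replicate's peak by an overlap of at least 1 bp, and the strongest overlapping peak gave its rank. Each top list held a replicate's 3586 peaks of highest signal. Densities are per Mb of sequence meeting the rule. Python 3.11.15, pandas 2.3.3, numpy 2.4.6 and scipy 1.17.1 were used, and classification and matching were tested on simulated data.

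The members, lists and motifs were chosen with earlier results of these data known. Named genes flank the 15 strongest and 5 farthest peaks, the peaks of the 5 fullest intervals (1 of which is not reported here), and the 3 strongest peaks of each list, and carriers of the CTCF core were added afterwards. All listed symbols were found, 13 of them under another name. Alternatives were the TSS distance, the TSS set, the gene spans, the match, the signal, the list size, the motif window and each replicate left out.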

Additional observations from a re-analysis of the deposited data

How the results depend on the processing

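The number of distal intergenic peaks was 397 with a TSS distance of 500 bp, 213 with 2 kb, 396 with protein-coding TSSs only, 283 outside gene spans of any biotype and 322 without transposable element starts, the last chosen after seeing the data. It was 125 among peaks at or above the median signal of the reproducible list. In that subset the share in all 3 top lists was 86.4%, and the log2 ratio of median ranks over distal intronic peaks turned to -0.097. The ratio over promoter-proximal peaks was 0.21 in the same subset. With top lists of 1793 peaks the share was 23.5%, and the difference in top list share from promoter-proximal peaks was -13.3 points. With replicate summits within 100 bp, the difference from intronic peaks was -2.55 points with exact p = 0.5. Densities beside gene lists, which rest on few peaks, moved for most lists among stronger peaks, where dorsal BMP-responsive genes had 4.06 per Mb against 3.92 over all genes. The cause was not tested. Leaving out each replicate in turn gave a share in the remaining top lists of 48.0 to 59.8%, where fewer lists have to hold the peak. The differences in top list share ranged from -3.93 to -5.74 points against intronic and from -4.30 to -7.60 points against promoter-proximal peaks when each replicate was left out. The log2 rank ratios then ranged from 0.20 to 0.21 and from 0.40 to 0.50. The excess of the CTCF core over intronic peaks, with alternatives chosen after seeing the data, was 3.16 to 6.01 points over motif windows, stricter letters and stronger peaks, and 3.67 to 5.54 without each replicate. Over promoter-proximal peaks it was 3.02 to 6.41 and 3.18 to 5.24. Samples could not be paired across groups because they form 1 group. Classes of peaks were compared within each replicate, and the sign-flip test used these within-replicate differences. Read depth is unknown, and the sign-flip test cannot give p below 0.25 with 3 replicates.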

Other observations

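For 2 members the nearest start was that of a microRNA gene, both between Alp13 and Fmr1 (the fly FMRP gene). One lay 1839 bp from mir-277, with signal 155.0 and ranks of 989, 2223 and 1210 in replicates 1, 2 and 3. The other lay 3408 bp from mir-317, with signal 116.4 and ranks of 1749, 1786 and 6045.

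The density of distal intergenic peaks differed among chromosome arms. It was 11.8 per Mb of sequence meeting the rule on 2L, 11.2 on 3L, 8.95 on 3R, 7.85 on X and 7.62 on 2R. In the pooled list, 3741 of the 26414 regions outside the reproducible list were distal intergenic (14.2%), against 8.53% of the reproducible peaks. No match to any of the 20 motifs was found within 100 bp of 49 of the 306 summits. The share without a match was not counted in flanks or other peaks, so the count cannot be read as a trait of these summits.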
